A study of Mus musculus with 6 samples.

Results

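The genes described here encode secreted factors that act on blood vessels. They are the VEGF family ligands Pgf, Vegfa, Vegfb, Vegfc and Vegfd, the vasoactive peptides Adm and Edn1, the lipase inhibitor Angptl4, and the PDGF ligands Pdgfa and Pdgfb. All 10 were found among the 25330 genes listed for each library by an exact match of the gene symbol. The set was chosen by name with the values of the hypoxia-reoxygenation against control contrast in these same libraries already known, so the changes of the 10 genes are given as a description, with standard errors and without p values. The libraries were made from wild-type AML12 cells, a mouse hepatocyte line that was originally derived from mice carrying a human TGF-alpha transgene. In the control group (n = 3), cells were kept at 21% oxygen in medium with 10% fetal bovine serum, an insulin-transferrin-selenium supplement and 40 ng/mL dexamethasone. In the H/R group (n = 3, titled H6R2), medium without serum or glucose was given, the cells stayed at 1% oxygen for 6 h, and reoxygenation lasted 2 h. Both groups were kept at 5% CO2. Oxygen, serum and glucose thus changed together, and their parts in any difference cannot be told apart. Whether the H/R medium still held the supplement and dexamethasone is not stated, so these may have changed as well. No label states that the replicates were separate cultures, so the standard errors and p values cover the spread between these libraries only.

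Total counts were between 20438746 and 21854790 per library. Hepatocyte and epithelial transcripts defined the cells: Krt8 and Krt18, keratins of simple epithelia, stood at 2048 and 1649 RPKM (reads per kilobase of gene, scaled to the library total) in H/R cells, and Hnf4a, a hepatocyte transcription factor, at 20.6 RPKM. Of the 10 hepatocyte and epithelial markers, 4 were called lower after H/R, beside 4.27% of all tested genes. They were led by Ttr, the transthyretin gene, and Alb, the albumin gene, with log2 fold changes of -3.07 and -2.85 (adjusted p = 0.00768 and 0.0372). Also called were Trf, whose exons overlap Gm20425 over a fraction of 0.635 of their length, and Afp, which was tested because of its control counts. The call of Alb did not hold without control replicate 3 or without any single H/R library, where the adjusted p was between 0.0655 and 0.117. Levels were uneven between controls, with 542 counts of Alb in control replicate 1 against 132 and 209 in the other 2 controls. Markers of endothelial cells, the usual targets of these ligands, were close to absent, since the summed counts of the 6 analysed markers were between 14 and 32 in each library and the endothelial adhesion gene Pecam1 had at most 1 count. Summed counts of the 6 stellate and mesenchymal markers were between 12 and 24. The macrophage and leukocyte markers summed to between 22 and 30 counts in controls and between 116 and 141 in H/R libraries, of which Cd68, a lysosomal protein gene, made up 16 to 22 and 113 to 137, while Adgre1, Clec4f and Ptprc had at most 3 counts. In bulk RNA, a lower value can stand for fewer cells of a type or for less RNA per cell, and these were not told apart.

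VEGF family ligands are dimeric growth factors that bind receptor tyrosine kinases. VEGFA binds FLT1 and KDR, PlGF (the product of Pgf) and VEGFB bind FLT1, and VEGFC and VEGFD bind FLT4. Vegfa is among the best known targets of the hypoxia-inducible factors (HIFs), which bind a short DNA element with the core ACGTG or GCGTG when oxygen is low. Adrenomedullin (from Adm) relaxes vessels, endothelin-1 (from Edn1) constricts them, ANGPTL4 inhibits lipoprotein lipase, and the PDGF ligands recruit pericytes and other mesenchymal cells through PDGFRA and PDGFRB.

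Because oxygen was among the conditions that changed, the sequences just upstream of the 3 genes with the largest increases are shown, with that of Vegfb, which was lower after H/R. They are from RefSeq on GRCm38.p6, hold the 250 bases before an annotated start, and are written on the strand of the gene. Capitals mark each ACGTG or GCGTG, or their reverse complements CACGT and CACGC. A run of CACGTG would be counted on each strand, and none occurs in these sequences. The Pgf sequence is at chr12:85177314-85177563 (minus strand), that of Vegfa at chr17:46032378-46032627 (minus strand), that of Adm at chr7:110627407-110627656 (plus strand) and that of Vegfb at chr19:6987652-6987901 (minus strand).
Pgf: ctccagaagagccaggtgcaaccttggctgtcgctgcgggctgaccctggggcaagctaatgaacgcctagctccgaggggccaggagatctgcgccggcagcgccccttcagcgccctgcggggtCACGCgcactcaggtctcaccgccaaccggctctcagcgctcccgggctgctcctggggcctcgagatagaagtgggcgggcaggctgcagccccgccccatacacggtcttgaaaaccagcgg
Vegfa: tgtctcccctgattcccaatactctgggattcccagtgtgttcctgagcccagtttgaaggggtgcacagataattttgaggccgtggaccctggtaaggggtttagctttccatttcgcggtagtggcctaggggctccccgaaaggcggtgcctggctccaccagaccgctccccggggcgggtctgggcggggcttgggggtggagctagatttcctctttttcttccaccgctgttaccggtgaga
Adm: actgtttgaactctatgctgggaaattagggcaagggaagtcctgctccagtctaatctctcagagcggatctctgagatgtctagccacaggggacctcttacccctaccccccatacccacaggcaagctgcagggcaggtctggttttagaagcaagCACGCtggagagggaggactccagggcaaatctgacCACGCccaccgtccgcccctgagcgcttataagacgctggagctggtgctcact
Vegfb: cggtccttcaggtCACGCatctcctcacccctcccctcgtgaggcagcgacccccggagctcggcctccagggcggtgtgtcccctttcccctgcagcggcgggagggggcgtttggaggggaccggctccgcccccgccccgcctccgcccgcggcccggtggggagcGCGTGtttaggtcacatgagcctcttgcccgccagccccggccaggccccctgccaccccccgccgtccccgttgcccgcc

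The search covered windows of 300 bases that also take in the first 50 bases after the start. Among the 8 members with such a window, 6 had a core in at least 1 of their windows. Counted by window, this was 6 of 11, near the 43.8% of the 32851 windows of all genes. The Pgf window shown held 1 core, which began 124 bases before the start. A second Pgf window (chr12:85175933-85176232), which lies wholly inside the gene, held none. In Adm there were 2, at 90 and 54 bases before the start, together with the letters TATAA on the strand of the gene, which 17.5% of all windows hold. The Vegfa window shown held none. A second annotated Vegfa start (chr17:46025114-46025413) lies inside the gene, with 218 of its 300 bases in exons, and that window held 2 cores. Vegfb held 2 cores, Edn1 held 1, which began 21 bases after the start, and Pdgfa held 1 in 1 of its 2 windows. The Edn1 window had 256 of its 300 bases in exons of Edn1 as listed for these libraries. Both Pdgfa windows lay wholly inside the gene, with 143 and 136 bases in its exons. These windows are therefore not purely upstream sequence. No core was found in the windows of Vegfc and Vegfd, and that of Vegfd had 194 of its 300 bases in exons of the gene. Cores were therefore present in windows of genes that were higher and of genes that were lower after H/R. These matches describe the letters of short windows only, and elements farther away were not searched.

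After H/R the set split. Pgf, Adm and Vegfa were higher, Vegfb and Vegfd were lower, Pdgfb was 1.97-fold higher, Edn1 was slightly lower, and Angptl4 and Pdgfa were close to their control levels. Of the 10 members, 9 passed the filter on low counts, and the exception was Vegfc. Pgf passed through its H/R counts and Vegfd through its control counts. Only 1 control library of Pgf and 0 H/R libraries of Vegfd reached the cutoff of the filter. Genes this low in 1 group are tested only if the other group is high. An adjusted p under 0.05 with a change of at least 2-fold, the thresholds of the study, was reached upward by 3 members and downward by 1, where 4.25% of the 14020 tested genes were called higher and 4.27% lower. On normalized counts, the H/R and control libraries did not overlap in 5 members that were higher and 3 that were lower. The shares over all tested genes were 32.5% and 33.5%. Among the 5 was Pdgfa, whose groups overlapped in RPKM. The median log2 fold change of the 9 members was 0.07, beside -0.01 for all tested genes. Since this contrast served to choose the members, nothing is read from these shares.

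**Figure D1:**
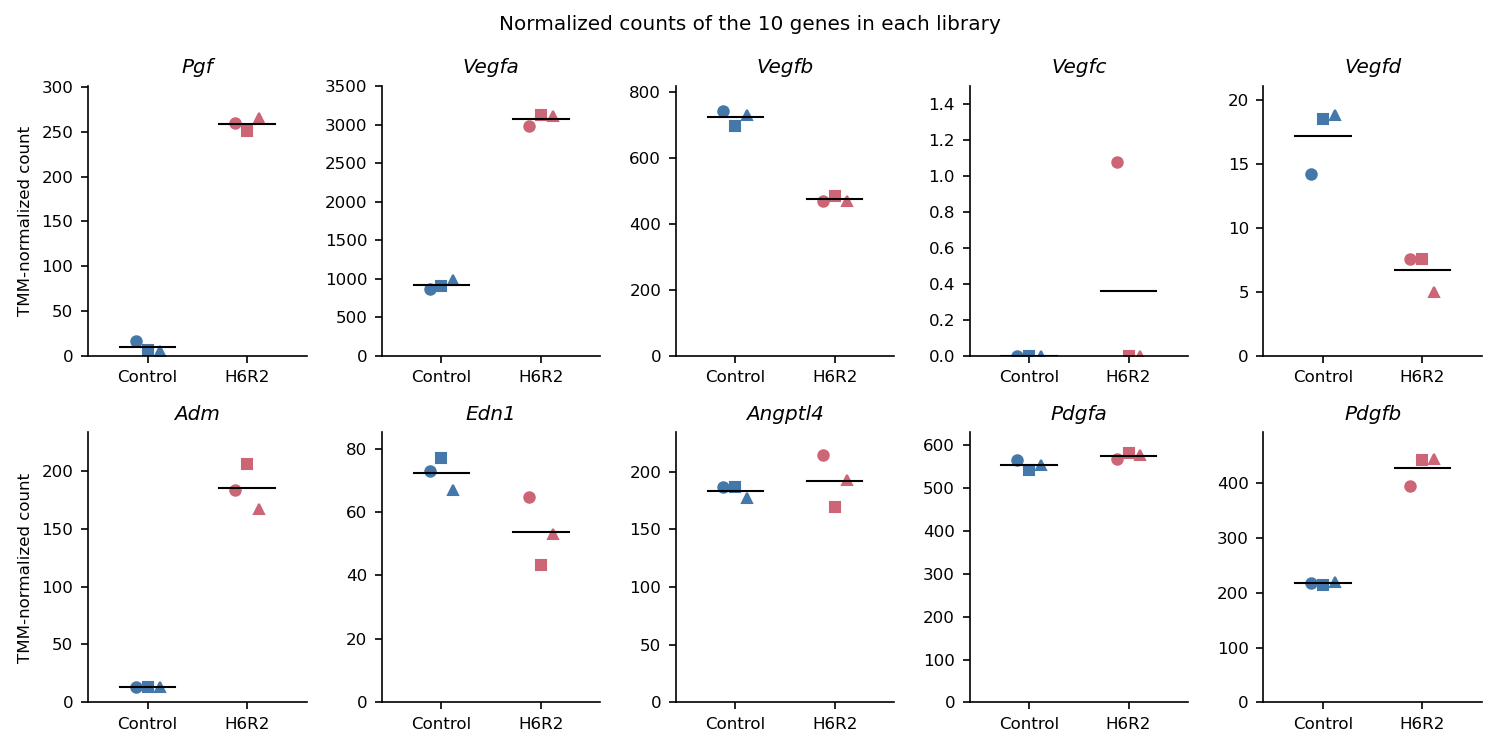
TMM-normalized counts (vertical axes, linear and starting at 0, with a separate range for each gene) of the 10 genes in the 3 control and 3 H/R (H6R2) libraries; circles, squares and triangles are replicates 1, 2 and 3, and the black line is the group mean. Pgf, Vegfa, Adm and Pdgfb sit higher in every H/R library, and Vegfb, Vegfd and Edn1 sit lower. Pdgfa sits slightly higher on this scaling, but its groups overlap in RPKM, which is scaled to the library total. Angptl4 overlaps between the groups, and Vegfc has a single count in 1 library.

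Among the VEGF ligands, Pgf showed the largest change. Pgf, on chromosome 12 from 85166639 to 85177296, had 17, 7 and 6 counts in the controls, in the order of the replicate numbers, against 241, 233 and 266 after H/R. The lowest H/R library thus lay far above the highest control. Normalized counts averaged 9.52 ± 5.72 (SD, n = 3) in control and 259 ± 7.29 (SD, n = 3) in H/R cells, a log2 fold change of 4.74 (SE 0.195) or 26.8-fold. Only 7 of the 14020 tested genes, Pgf included, had a log2 fold change as high. The control level rests on few counts, and the size of the change depended on control replicate 1, the library with the highest Alb count: without it the log2 fold change was 5.35.

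Vegfa, on chromosome 17 from 46016993 to 46032369, was the most abundant of the VEGF transcripts after H/R. Its counts were 912, 928 and 1043 in the controls against 2770, 2901 and 3109 after H/R. Each H/R library held more than 2 times the count of any control, and the replicates within a group lay close together. The normalized count rose from 917 ± 60.1 to 3073 ± 78.4 (SD, n = 3 each), with a log2 fold change of 1.74 (SE 0.05) or 3.35-fold, and 164 tested genes, Vegfa included, had a log2 fold change as high. Its splice forms, which differ in heparin binding, are not separated by counts per gene.

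Vegfb, on chromosome 19 from 6982473 to 6987651, moved the opposite way. This ligand of FLT1 is best known for its expression in tissues that burn fatty acids. It had 786, 715 and 777 counts in controls and 437, 450 and 469 in H/R libraries, so that the groups were well separated. The log2 fold change was -0.61 (SE 0.0627), a 1.53-fold lower level, from a normalized count of 724 ± 24.3 to 475 ± 9.09 (SD, n = 3 each). It was lower under every scaling tried, from -0.71 with library totals to -0.60 with DESeq2 size factors.

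The ligands of FLT4 were scarce. Vegfd, on chromosome X from 164373378 to 164402650, had 15, 19 and 20 counts in controls and 7, 7 and 5 in H/R libraries. Its log2 fold change was -1.35 (SE 0.392), and the SE shows how little these counts fix it. Vegfc, on chromosome 8 from 54077606 to 54187096, was at 0 in 5 libraries and had 1 count in H/R replicate 1, so no fold change is given. At this depth, 3 counts or fewer per library cannot be told from the absence of the transcript.

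The makeup of the transcripts for FLT1 ligands changed with these opposite moves. The shares were taken from RPKM, which allows genes of different length to be compared, and are a description of the same contrast. Vegfb made up 67.2% ± 1.27 (SD, n = 3) of the summed RPKM of Vegfa, Vegfb and Pgf in controls and 25.1% ± 0.44 in H/R libraries. Vegfa made up 31.9% ± 1.81 and 60.9% ± 0.51, so the order of these ligands was exchanged. Pgf went from 0.896% ± 0.533 to 13.9% ± 0.502, and its share in the control group ranged from 0.519% to 1.51% between libraries. The summed RPKM of the 3 ligands was 32.9 ± 1.32 in control and 53.6 ± 1.25 in H/R cells. Within a library, Vegfa had 0.474 ± 0.0356 times the RPKM of Vegfb in controls and 2.42 ± 0.055 times after H/R. Each of these ratios is formed within a library and does not depend on how libraries were scaled.

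**Figure D2:**
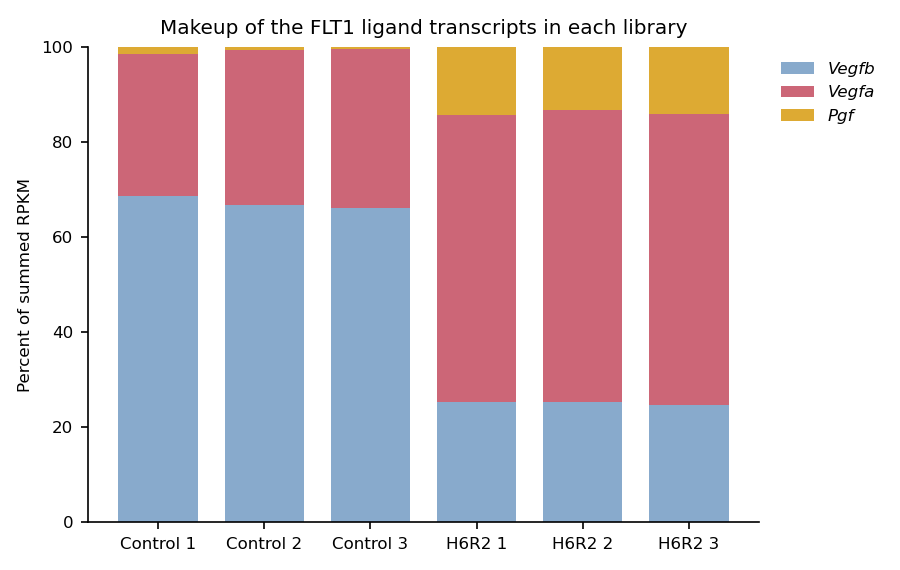
Percent of the summed RPKM of Vegfb, Vegfa and Pgf (vertical axis) taken by each gene in the 6 libraries (horizontal axis). Vegfb takes 66.2% to 68.7% in the control libraries and 24.6% to 25.4% in the H/R libraries, while Pgf takes 0.519% to 1.51% in the control and 13.3% to 14.2% in the H/R libraries.

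Adm, on chromosome 7 from 110627661 to 110629820, had 14 counts in each of the 3 control libraries and 170, 191 and 167 in the H/R libraries. The groups were far apart. The control libraries hardly differed, but at 14 counts each this small spread does not show that the level is fixed so closely. On log2(RPKM + 1), a scale that shrinks the changes of low genes, the log2 fold change was 2.14. Normalized counts were 13.4 ± 0.255 in control and 185 ± 19.7 in H/R cells (SD, n = 3 each), a log2 fold change of 3.78 (SE 0.185) or 13.7-fold. As many as 15 tested genes, Adm included, had a log2 fold change as high.

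Edn1, on chromosome 13 from 42301270 to 42307989, encodes the precursor of the vasoconstrictor endothelin-1 and did not follow Adm. It had 77, 79 and 71 counts in controls and 60, 40 and 53 in H/R libraries. The lowest control and the highest H/R library, at normalized counts of 66.8 and 64.6, nearly touched. The log2 fold change was -0.43 (SE 0.181), and it lay between -0.58 and -0.30 with single libraries left out.

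Angptl4, on chromosome 17 from 33773750 to 33781575, encodes an inhibitor of lipoprotein lipase that responds to fasting through PPAR receptors as well as to hypoxia in many cell types. It had 197, 191 and 188 counts in controls and 199, 157 and 193 in H/R libraries. The groups overlapped, with normalized counts of 183 ± 5.44 and 192 ± 22.5 (SD, n = 3 each). The log2 fold change was 0.07 (SE 0.107) and took the opposite sign, -0.04, when library totals were used for scaling, so no direction is given.

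Of the PDGF ligands, Pdgfb was clearly higher after H/R, while Pdgfa differed little. Pdgfb, on chromosome 15 from 79995900 to 80014808, had 229, 220 and 232 counts in controls and 366, 409 and 444 in H/R libraries, without overlap. Its normalized count was 217 ± 1.93 in control and 426 ± 27.9 in H/R cells (SD, n = 3 each), a log2 fold change of 0.98 (SE 0.085) or 1.97-fold, just short of the 2-fold threshold. Without H/R replicate 1 it was 1.03, past that threshold.

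Pdgfa, on chromosome 5 from 138976014 to 138997370, had 597, 555 and 588 counts in controls and 527, 539 and 579 in H/R libraries. Its normalized counts, 541 to 565 in controls and 568 to 581 after H/R, did not overlap. Its RPKM values, 8.46 to 8.84 in controls and 8.23 to 8.54 after H/R, did. The log2 fold change was 0.06 (SE 0.0631) but turned to -0.05 with library totals and to -0.01 with upper quartile scaling, so no direction is given for it either. The Pdgfa exons overlap those of 6330403L08Rik on the opposite strand over a fraction of 0.261 of their length, and its counts are uncertain for that reason. The exons of the other 9 members overlap no other gene in the tables. Relative to Pdgfb, Pdgfa had 2.39 ± 0.0427 times the RPKM in controls and 1.27 ± 0.0699 times after H/R (SD, n = 3 each). The PDGF-B transcript accordingly went from 29.5% ± 0.369 to 44.1% ± 1.34 of the summed RPKM of both genes.

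**Figure D3:**
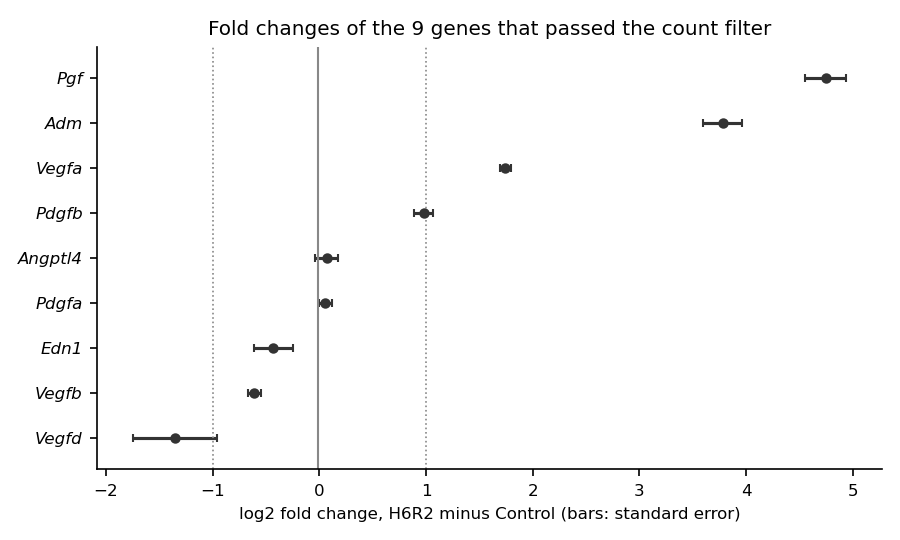
Log2 fold changes (horizontal axis, H/R minus control) of the 9 genes that passed the count filter, with standard errors as bars; the solid grey line is the median of all 14020 tested genes at -0.01 and the dotted lines are 2-fold changes. Pgf at 4.74, Adm at 3.78 and Vegfa at 1.74 stand to the right of the 2-fold line, Pdgfb at 0.98 lies on it, and Vegfd at -1.35 is the only gene to the left of the other.

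Ordered by RPKM in the controls, the members were Vegfb (22.1 ± 0.806), Vegfa (10.5 ± 0.855), Pdgfa (8.69 ± 0.2), Pdgfb (3.63 ± 0.0815), Angptl4 (2.73 ± 0.0418), Edn1 (1.51 ± 0.0912), Adm (0.404 ± 0.00789), Vegfd (0.35 ± 0.0567) and Pgf (0.293 ± 0.173), with Vegfc listed at 0. All neighbours in this order were separated in every library, apart from Vegfd and Pgf, which overlapped. In H/R cells the order was Vegfa (32.7 ± 1.02), Vegfb (13.5 ± 0.228), Pdgfa (8.41 ± 0.158), Pgf (7.45 ± 0.265), Pdgfb (6.66 ± 0.477), Adm (5.21 ± 0.52), Angptl4 (2.66 ± 0.308), Edn1 (1.04 ± 0.206) and Vegfd (0.126 ± 0.0268), in which no neighbours overlapped. Pgf moved from the ninth to the fourth place.

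The members were also compared in the number of ATTTA pentamers in their 3' untranslated regions, since these elements are known to speed the decay of many induced mRNAs. The letters were searched on the transcript strand of the longest such region of each gene in GENCODE release M21, and overlapping copies were counted. An annotated region was found for 11008 tested genes (78.5%), and the comparison covers only these. Their median was 2 pentamers, or 1.3 per kb. Vegfa had 9 pentamers in 1868 bases, and 8.88% of these genes had at least as many. Pgf and Adm had 2 each, in 779 and 655 bases, a number that 50.7% of these genes reached. Per kb they had 2.57 and 3.05, which 24.9% and 18.7% of these genes reached. Edn1, which was slightly lower after H/R, had 2.69 per kb, reached by 22.9%. Vegfc had 4, Edn1 and Pdgfb had 3 each, and Vegfd and Angptl4 had 1 each. Vegfb and Pdgfa had none, in 420 and 1206 bases. How long these mRNAs last was not measured.

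Receptors and relatives of the members were tested in the same fit. Their lists were chosen with earlier results of these data known as well, so the counts below describe the lists and support nothing independently. Of 106 such genes in the lists, which cover receptors, related ligands, enzymes and regulators, 66 passed the filter, 22 were called higher and 6 lower at an adjusted p under 0.05 and 2-fold, beside the 4.25% and 4.27% of all tested genes. Of these 28 called genes, 4 (Ackr3, Ptges, Bdkrb2 and Fgf2) had fewer than 3 libraries of their lower group at the cutoff of the count filter. They were tested because of the group in which they were high, and are therefore given below without p values. The median log2 fold change of the 66 genes was 0.49. The lists include genes picked for their known response to low oxygen. Of the 3 VEGF receptors, Flt1 alone passed the filter, with 91 to 112 counts in controls and 127 to 145 after H/R and a log2 fold change of 0.57 (SE 0.132, adjusted p = 0.000312). Kdr and Flt4 had at most 3 counts in any library. The co-receptors moved apart: Nrp2 rose with a log2 fold change of 0.65 (SE 0.0663, adjusted p = 1.59e-10), and Nrp1 fell by 0.95 on the log2 scale (SE 0.103, adjusted p = 8.29e-10), or by 1.05 with library totals.

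For the PDGF ligands the receptors were nearly missing. Pdgfra had 14 to 19 counts in controls and 5 to 13 after H/R (log2 fold change -0.68, SE 0.389), and Pdgfrb had at most 2. Pdgfra was not called and its normalized counts overlapped between the groups. It was tested because of its control counts, so it is given without a p value. Pdgfc, a further ligand of PDGFRA, rose slightly (0.20, SE 0.0627, adjusted p = 0.00501), while Pdgfd had at most 4 counts. The adrenomedullin receptor is formed by CALCRL with a RAMP protein. Calcrl had at most 5 counts in any library, Ramp2 had 603 to 784 counts with a log2 fold change of -0.09 (SE 0.0601, adjusted p = 0.178; a fraction of 0.334 of its exon length overlaps Vps25), and Ramp1 did not pass the test either (0.16, SE 0.236, adjusted p = 0.569). The related peptide gene Adm2 rose with a log2 fold change of 1.37 (SE 0.194, adjusted p = 1.79e-07). Ackr3, a scavenging receptor for chemokines and adrenomedullin, had 7, 15 and 16 counts in controls and 34, 29 and 37 after H/R (1.52, SE 0.303). Ece1, which cleaves big endothelin to its active form, fell by 0.23 on the log2 scale (SE 0.0538, adjusted p = 0.000392). Ece2 did not pass the test (-0.30, SE 0.195, adjusted p = 0.179), and Edn2 had at most 9 counts.

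Among genes that process or clear the secreted peptides, 1 of 6 tested genes was called higher and 1 lower. Ccbe1, which aids the cleavage of VEGFC, rose from a normalized count of 2310 ± 56.4 to 5827 ± 239 (SD, n = 3 each; log2 fold change 1.33, adjusted p = 8.86e-24), in cells that held almost no Vegfc. Pcsk6, a proprotein convertase, fell by 1.07 on the log2 scale (adjusted p = 2.13e-14). The other tested genes of this list, named after their values were seen, changed by less than 2-fold. The processing enzyme genes Furin, Pcsk7 and Pam were lower (-0.43, -0.27 and -0.44), and Mme, a clearing enzyme, was higher (0.82). Among the angiopoietin relatives, 1 of 2 tested genes was called higher, Angptl6 (1.86, adjusted p = 2.32e-09; overlap fraction 0.168). Of 2 tested lipases and partners 1 was called higher, and this was Lpl itself, the enzyme that ANGPTL4 inhibits, with 52 to 53 counts in controls and 120 to 134 after H/R (1.41, SE 0.148, adjusted p = 3.34e-10). Lpl thus rose while Angptl4 stayed near its control level. Of 6 tested PPAR receptors and targets, 5 were not called, and Ehhadh, an enzyme of peroxisomal fatty acid oxidation, was called lower (-1.57, adjusted p = 1.65e-05).

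Other angiogenic growth factors went both ways, with 2 of 5 tested genes called higher and 2 lower. Cyr61 and Ctgf, matricellular proteins, had log2 fold changes of 2.16 and 2.13 (adjusted p = 2.38e-17 and 1.27e-22; overlap fraction 0.232 for Ctgf), and the fibroblast growth factor gene Fgf1 had -2.56 (adjusted p = 6.67e-18). The second gene called lower, Fgf2, had 20, 19 and 11 counts in controls and 5, 2 and 11 after H/R, so the groups overlapped. Its log2 fold change was -1.32 (SE 0.445), and it was no longer called without H/R replicate 2, at -0.93. Among 6 tested angiogenesis inhibitors, Thbs1 (thrombospondin-1) was called 5.67-fold higher (adjusted p = 4.25e-17) and Vash2 lower with a log2 fold change of -1.92 (adjusted p = 2.54e-13); Vash2, unlike its relative vasohibin-1, is also described as angiogenic. Of 10 tested enzymes for vasoactive gases and prostanoids, 4 were called higher, led by the prostaglandin synthesis genes Ptgs2 (3.12, adjusted p = 2.75e-21) and Ptges, which had 7 to 11 counts in controls and 28 to 38 after H/R (1.95, SE 0.315). The kinin receptor gene Bdkrb2 was the only tested gene of the renin-angiotensin and kinin list, with 3, 3 and 8 counts in controls, all under the cutoff of the filter, and 13, 21 and 20 after H/R.

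**Figure D4:**
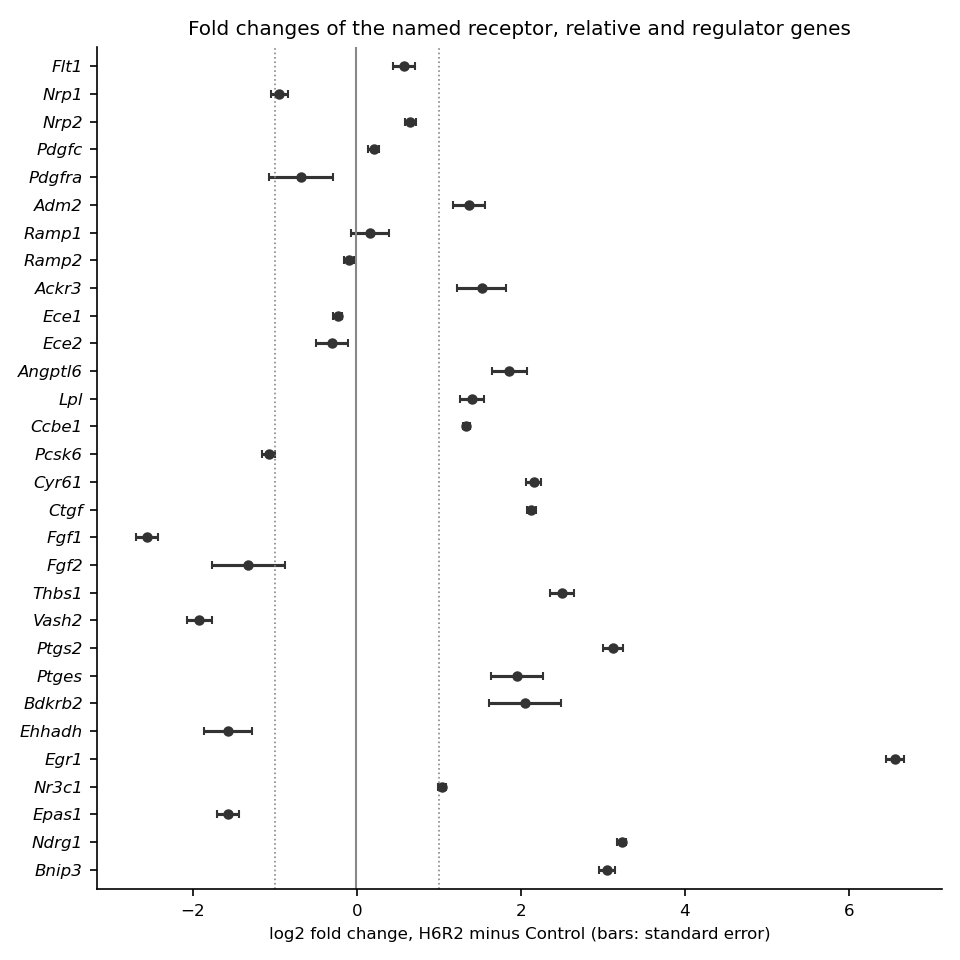
Log2 fold changes (horizontal axis, H/R minus control) with standard errors of the named receptors, relatives, enzymes and regulators that passed the count filter; the solid line is the median of all tested genes and the dotted lines are 2-fold changes. The receptor genes at the top lie between -0.95 and 1.52, while Egr1 at 6.56 lies farthest to the right and Fgf1 at -2.56 farthest to the left. Genes named in the text after their values were seen are not plotted.

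All 9 transcription factors listed as acting on the members were tested, and 2 were called higher and 1 lower. At an adjusted p under 0.05 whatever the size of the change, 8 were higher. Most tested genes passed that looser threshold in 1 direction or the other. It was passed by 7882 to 8841 genes in the alternatives on all 6 libraries, beside 14020 tested in the main fit. Nothing is therefore read from the 8. Egr1, which acts on PDGF and VEGF genes, was called higher at 6.56 (adjusted p = 1.37e-31), and Nr3c1, the glucocorticoid receptor gene, at 1.04 (adjusted p = 5.13e-19). Nr3c1 was no longer called in 4 of 8 alternatives on all 6 libraries. Its log2 fold change was 0.94 with library totals and 0.83 on log2(RPKM + 1), both under the 2-fold threshold. Epas1, the gene of HIF-2 alpha, fell by 1.57 on the log2 scale (adjusted p = 2e-12). The other HIF subunit genes Hif1a and Arnt, named after their values were seen, rose by less than 2-fold, with log2 fold changes of 0.70 (SE 0.0408, adjusted p = 1.09e-16) and 0.90 (SE 0.0464, adjusted p = 3.37e-18). Of the 8 hypoxia reference genes 7 were called higher, and the list had a median log2 fold change of 2.12, led by Ndrg1 (3.23, adjusted p = 8.33e-31) and Bnip3 (3.05, adjusted p = 1.21e-08; overlap fraction 0.223). Vegfa lay below that median and Pgf and Adm above it. Profiles were also ranked by their Euclidean distance to that of Pgf over the 6 libraries, in units of log2 CPM less the control mean. Among tested genes with a mean count of at least 100, the nearest were Atf3 (2.05), Hspa1a (2.30) and Gm17035 (2.48). They were not close, with log2 fold changes of 3.56, 6.28 and 3.28 against 4.74 for Pgf. The exons of Gm17035 overlap those of Ndrg1.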

How the data were processed

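RNA of 3 control and 3 H/R samples of AML12 cells was extracted with TRIzol and made into libraries with a stranded mRNA kit. Per the submitters' processing notes, reads were trimmed with Trimmomatic 0.36 and counted with featureCounts of Subread 1.5.1, and edgeR 3.12.1 is also named. The study's methods name GRCm38 and an aligner printed as STRA. The annotation release and the strand setting of the counting are not given in the sources used here. The authors deposited whole-number counts per gene and RPKM values, which could be recomputed from count, gene length and library total with a relative error of at most 1.13e-06.

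Counts of the 25330 genes were fitted in R 4.3.3 with edgeR 4.0.16: filterByExpr, TMM scaling, glmQLFit with robust dispersions and glmQLFTest, and p values were adjusted by the Benjamini-Hochberg method across the 14020 genes that passed. A gene was called at an adjusted p under 0.05 and a fold change of at least 2. Standard errors were derived from the F statistic. Normalized counts are counts divided by the effective library size, times its mean. RPKM values, as deposited, served for levels between genes. In simulated data for this comparison with 200 genes changed by 2.5 or 4 times, 100% were recovered. The changed genes were drawn from those with higher counts, and a common dispersion was used for all genes. This recovery therefore does not speak for genes with few counts, such as Vegfd, or for genes that vary more between libraries. The members and gene lists were chosen with earlier results of these data known. The genes named are the members and every gene of the first 4 lists with over 3 counts in some library. They also include at most 2 called genes per direction of each other list, and the 3 genes with the profile nearest to Pgf. Marker genes, a few low genes and a few genes that were not called were added as context after their values were seen. Promoter windows were taken from RefSeq (GRCm38.p6), which gave windows for 8 of the 10 members. The alternatives were DESeq2 1.42.0, upper quartile scaling, library totals, 2 other count filters, the replicate block, non-robust dispersions, limma 3.58.1 (limma-trend) on log2(RPKM + 1) and log2(RPKM + 0.1), and each library left out.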

Additional observations from a re-analysis of the deposited data

How the results depend on the processing

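Both thresholds were passed by 1195 genes, by 882 to 1521 in 8 of 9 alternatives on all 6 libraries, and by 406 with limma on log2(RPKM + 1), a scale that shrinks the changes of low genes. The share of higher genes among them was 49.9%, 41.3% with upper quartile scaling, 41.5% on log2(RPKM + 0.1) and 37.0% with library totals, and over all tested genes the median log2 fold change, -0.0141, became -0.0844 under upper quartile and -0.119 under library total scaling. Of the members, 4 passed both thresholds, and 4 to 5 did so when single libraries were omitted. This number was 2 under a minimum of 10 counts per library, because Pgf and Vegfd were then not tested. The member called lower, Vegfd, was not called in that alternative or on either RPKM scale, which leaves 0 members called lower there; its log2 fold change was -0.26 on log2(RPKM + 1). Pgf, Vegfa and Adm kept their direction in each alternative that tested them, with log2 fold changes from 2.72 to 5.35, 1.55 to 1.80 and 2.14 to 3.85. Of 124 refitted values of the 9 tested members, 103 moved by less than the SD between replicates. This number pools processing alternatives with fits that left out 1 library and so shared most of the data. In the latter only Pgf moved by more, in 1 of 6 fits. In the alternatives on all 6 libraries Vegfb, Pdgfa and Pdgfb moved by more in 4 of 8 each. Vegfa did so in 3 of 8, and each other member in at most 2. Of the related genes, 28 were past both thresholds, 14 on log2(RPKM + 1) (12 higher, 2 lower), and 13 were called lower in place of 6 without a filter on low counts, where more genes are tested. Ramp1, which did not pass the test, had a log2 fold change of -0.023 without control replicate 2 and -0.129 without H/R replicate 1, and between -0.129 and 0.344 over all libraries left out. With ACGTG alone as the core, 2 members in place of 6 had it in a window. Libraries with the same replicate number did not deviate together (correlations of deviations from -0.0269 to 0.00476), and with the replicate block 1200 genes and 4 members were called. Counts at or below 3 per library limit Vegfc, Kdr, Flt4 and Pdgfrb.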
